A study of Homo sapiens with 59 samples.

Results

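Genes that build fatty acids and triglycerides were followed in HepG2, an established line from a human liver carcinoma, after treatment with herbal water extracts. The 35 genes were chosen by name, from a list of enzymes of lipogenesis, elongation, desaturation and triglyceride synthesis with 2 of their transcription factors, and each was found in the deposited table by its identifier and symbol. They are 35 of 60675 genes in the table, and 34 passed the filter on low counts. The gene left out of the tests was SCD5, a second stearoyl-CoA desaturase, whose highest value in any library was 0.09 CPM (a count as a share of its library's scaled total, the unit of all levels here).

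RNA was sequenced from 59 libraries, all harvested after 24 h. The vehicle group received DMSO, given as 0.1% by the sample labels but as 2% by the series text, a difference that could not be settled. The positive control was wortmannin (10 uM), which inhibits phosphoinositide 3-kinases. Coptidis Rhizoma was given at 210, 42 and 8.4 ug/mL. Doses of 500, 100 and 20 ug/mL were used for Scutellariae Radix, Pinelliae Tuber, Zizyphi Fructus, Zingiberis Rhizoma (called dried ginger below) and Zingiberis Rhizoma Recens (called fresh ginger). The series text sets the top dose of an extract at its 20% inhibitory concentration where that was under 500 ug/mL. It sets the lower doses at 1/5 and 1/25 of the top dose. Coptidis is the only extract here with a top dose under 500 ug/mL. By that text, its 210 ug/mL is thus a 20% inhibitory concentration. Each group held 3 libraries, except Pinelliae Tuber at 20 ug/mL with 2. The labels of the wortmannin and extract groups give no DMSO content. Nothing in the labels says that replicates were separate cultures, so the p-values reflect only how far these libraries differ within a group, and that spread may be technical.

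In liver cells the mitochondrial citrate carrier SLC25A1 and the enzymes ACLY and ACSS2 supply acetyl-CoA to the cytosol, ACACA and ACACB carboxylate it to malonyl-CoA, and FASN joins these units into palmitate. Elongases (ELOVL), their partner reductases and desaturases (SCD, FADS) then shape the chain, acyl-CoA synthetases (ACSL) activate it, and acyltransferases (GPAM, GPAT3, GPAT4, AGPAT), lipins and DGAT1 or DGAT2 assemble the triglyceride. SREBF1 encodes the insulin-responsive factor SREBP-1 and MLXIPL the carbohydrate-responsive factor ChREBP, and many genes of the pathway are textbook targets of both. SREBP-1 commonly acts beside NF-Y, which binds the CCAAT box, and beside SP1, which binds the GC box.

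The promoter windows of 4 genes are shown: SCD, ACSS2 and FADS2 were among the members with the deepest falls and GPAT3 had the largest rise. PNPLA3 and DGAT1, also among the deepest falls, had no window at hand. Each window runs from 250 bases before to 50 bases after the outermost transcript start listed in RefSeq for GRCh38.p14, on the plus strand, with every CCAAT box (CCAAT on either strand) in capitals.
SCD, chr10:100346983-100347282: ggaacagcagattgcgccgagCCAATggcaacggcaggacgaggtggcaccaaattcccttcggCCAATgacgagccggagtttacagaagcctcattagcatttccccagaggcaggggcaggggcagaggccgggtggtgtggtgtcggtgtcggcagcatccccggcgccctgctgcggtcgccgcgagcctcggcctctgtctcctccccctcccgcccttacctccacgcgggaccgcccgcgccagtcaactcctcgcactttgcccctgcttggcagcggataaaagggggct
ACSS2, chr20:34874739-34875038: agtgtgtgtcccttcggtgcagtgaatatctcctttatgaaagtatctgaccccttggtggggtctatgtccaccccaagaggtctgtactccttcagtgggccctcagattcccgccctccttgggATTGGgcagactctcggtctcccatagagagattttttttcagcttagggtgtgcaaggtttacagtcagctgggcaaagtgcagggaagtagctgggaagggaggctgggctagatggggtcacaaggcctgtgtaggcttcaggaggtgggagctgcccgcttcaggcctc
FADS2, chr11:61815953-61816252: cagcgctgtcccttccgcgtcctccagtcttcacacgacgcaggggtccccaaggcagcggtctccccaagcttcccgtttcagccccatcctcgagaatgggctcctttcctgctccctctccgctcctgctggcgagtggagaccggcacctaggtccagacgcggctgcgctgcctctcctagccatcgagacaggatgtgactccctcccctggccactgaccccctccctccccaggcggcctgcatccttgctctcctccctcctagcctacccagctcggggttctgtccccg
GPAT3, chr4:83535857-83536156: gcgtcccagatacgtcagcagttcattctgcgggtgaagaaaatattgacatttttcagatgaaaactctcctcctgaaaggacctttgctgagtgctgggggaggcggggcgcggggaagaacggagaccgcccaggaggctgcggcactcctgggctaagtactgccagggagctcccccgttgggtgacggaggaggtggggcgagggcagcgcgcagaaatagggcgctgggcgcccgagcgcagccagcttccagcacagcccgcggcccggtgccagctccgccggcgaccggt
The SCD window held 2 CCAAT boxes and the ACSS2 window 1, and those of FADS2 and GPAT3 had no match. ACSS2 and FADS2 each have 2 listed windows, of which only 1 holds a match, so the letters depend on the start chosen. Windows were at hand for 28 of the 35 genes, and 16 of these (57.1%) had CCAAT in at least 1 listed window, against 39.7% of 27305 genes. The GC box (GGGCGG, either strand) was found for 25 of 28 (89.3%), against 48.3% of all genes. The E-box CACGTG was found for 2 of 28 (7.14%), against 8.77%, and the sterol element TCACNCCAC for 0 of 28, against 1.39%. The 27305 genes are all those with a listed window and were not matched to the members for expression or gene type. A gene with more listed windows has more chances of a match. These are matches of letters in short windows and say nothing of binding.

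Library totals lay between 21582603 and 31392069 counts with a median of 25834162. Within groups, 3 libraries stood furthest apart from both others of their group: Zingiberis Rhizoma 500 ug/mL replicate 1, Pinelliae Tuber 100 ug/mL replicate 3 and Zizyphi Fructus 20 ug/mL replicate 1. Others did so to a lesser degree, among them Coptidis 8.4 ug/mL replicate 3 and Scutellariae 20 ug/mL replicate 1. All 10 hepatocyte markers checked were expressed, with ALB at a mean of 10623 CPM in vehicle. Of 15 markers of endothelial, blood, stromal, adipose and bile duct cells, COL1A2 was at 0 in all libraries and PTPRC, CD3E, DCN, ADIPOQ and LEP did not pass 0.0403 CPM, while CD68, ACTA2 and KRT19, which HepG2 cells also express, made up nearly all of the sum. That sum was 230 to 239 CPM in vehicle libraries, 586 to 614 with Coptidis 210 ug/mL, 360 to 364 with Scutellariae 500, 336 to 354 with fresh ginger 500 and 322 to 359 with dried ginger 500. The summed hepatocyte markers ran the other way, at 42481 to 43265 CPM in vehicle, 24229 to 25264 with Coptidis 210 and 28375 to 29242 with Scutellariae 500. The rise of the first sum does not hold for its list as a whole. Of those 15 markers 8 were tested, with a median log2 change against vehicle of -0.43 with Coptidis 210 and -0.13 with Scutellariae 500. It was -0.57 with fresh ginger 500 and -0.38 with dried ginger 500. The summed levels moved with the changes described below, and their part in them was not tested.

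In vehicle cells, levels per kilobase of exon differed widely between the genes. SCD, the main stearoyl-CoA desaturase, stood at 386 ± 6.51 CPM per kb (SD, n = 3) and FASN at 152 ± 4.40. ACSL4 and ACLY followed at 111 ± 1.85 and 103 ± 1.67. SREBF1 stood at 7.52 ± 0.258 and MLXIPL at 24.3 ± 0.298. The lowest among the tested genes were AGPAT2 at 1.26 ± 0.280, ACACB at 1.72 ± 0.0776, FADS3 at 1.85 ± 0.0692 and GPAT3 at 3.01 ± 0.0552.

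A gene was called when its adjusted p was under 0.05 in edgeR's quasi-likelihood test, adjusted by Benjamini-Hochberg over all 16641 tested genes of a comparison. With Coptidis at 210 ug/mL, 7 of the 34 tested members rose against vehicle and 27 fell, where 34.8% of all tested genes rose and 34.5% fell. Fresh ginger at 500 ug/mL raised 7 and lowered 23 (all genes: 23.5% and 22.5%). Dried ginger at 500 ug/mL raised 6 and lowered 22 (all genes: 21.5% and 20.9%). Scutellariae at 500 ug/mL raised 7 and lowered 23 (all genes: 24.7% and 25.5%). Wortmannin raised 13 and lowered 4 (all genes: 16.2% and 16.0%). Pinelliae at 500 ug/mL raised 1 and lowered 1 (all genes: 2.64% and 1.93%). Zizyphi at 500 ug/mL raised 1 and lowered 0 (all genes: 2.09% and 1.53%), with 3 lower at an unadjusted p under 0.05 and 1 call in DESeq2, which counts both directions. The share of falls was above the background with the 4 extracts named first, and the share of rises was above it with wortmannin. The median log2 change of the 34 was -0.72 with Coptidis, -0.27 and -0.27 with the gingers, -0.35 with Scutellariae and 0.071 with wortmannin, where the medians over all tested genes were -0.0028, -0.00067, -0.004, 0.01 and 0.017. All comparisons with vehicle share its 3 libraries, so their likeness to each other is not independent. In bulk RNA, fewer cells of a type and less RNA per cell cannot be told apart, and CPM are shares of a library's total.

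**Figure D1:**
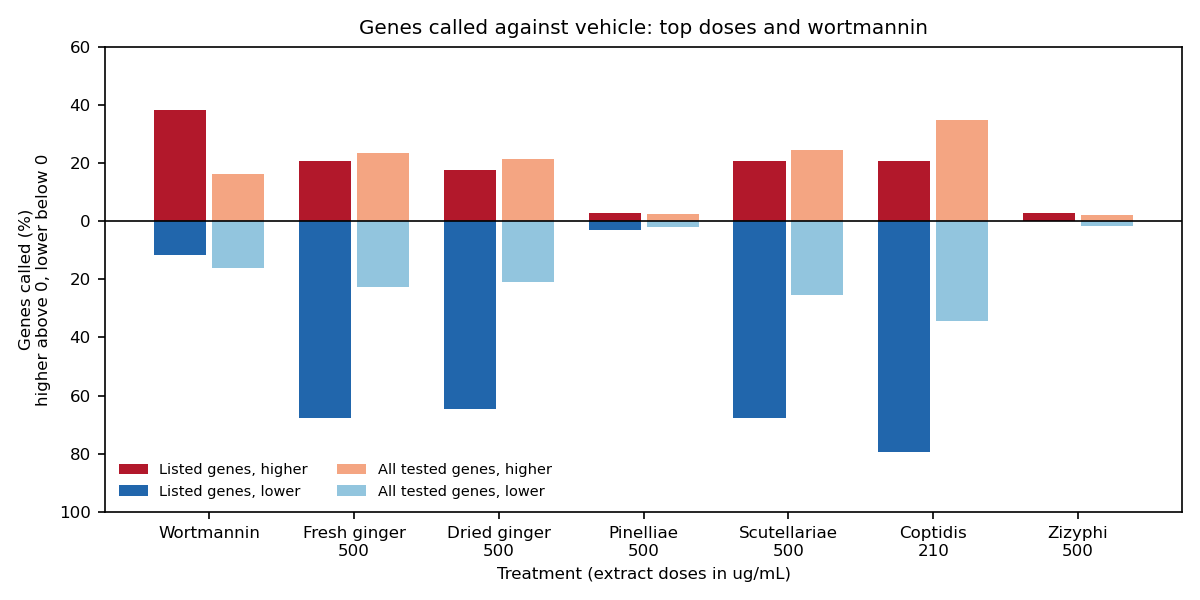
Percent of genes called against vehicle for wortmannin and the top dose of each extract; bars above 0 are genes called higher and bars below 0 genes called lower, dark for the 34 tested genes of lipid synthesis and light for all 16641 tested genes. The dark bars below 0 are longer than the light ones for both gingers, Scutellariae and Coptidis, and the dark bar above 0 is longer for wortmannin.

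**Figure D2:**
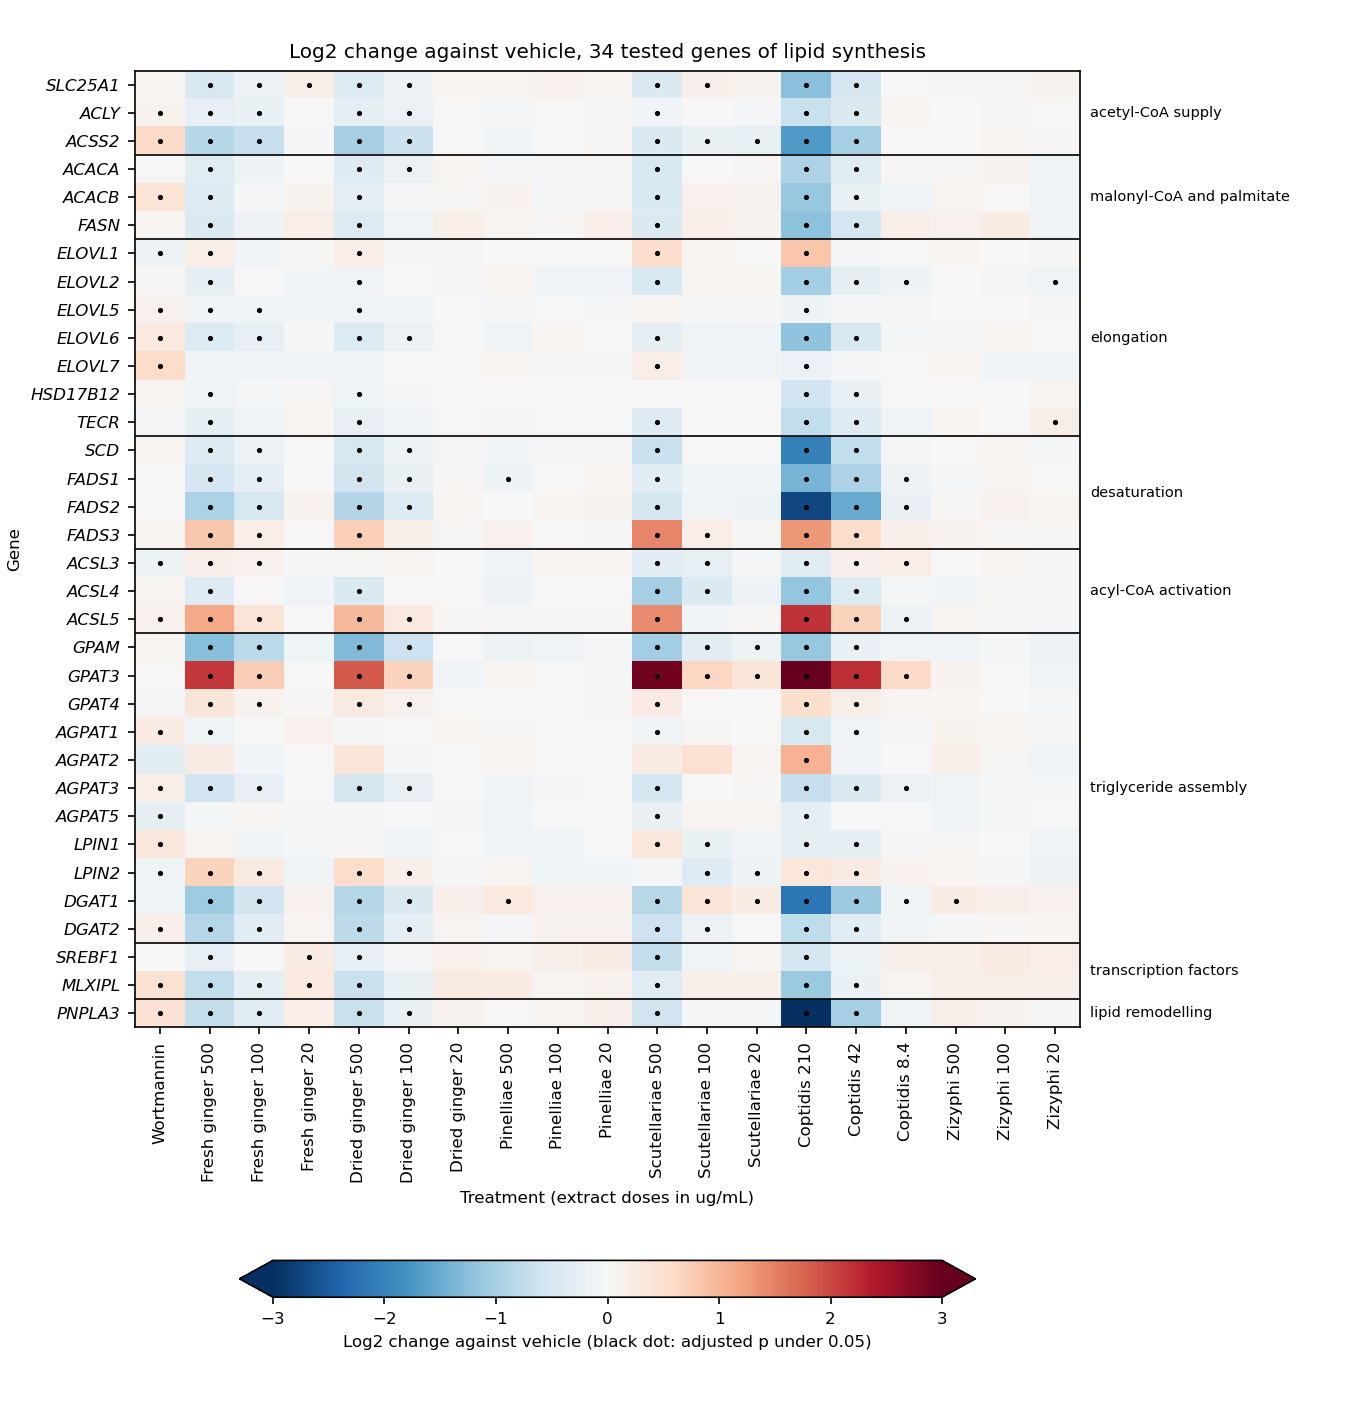
Log2 change against vehicle (colour, cut at -3 and 3) of the 34 tested genes (rows, by role) in wortmannin and the 18 extract groups (columns, doses in ug/mL), with a black dot where the adjusted p was under 0.05. Most rows are blue under Coptidis 210 and 42, while GPAT3, ACSL5 and FADS3 are red there and under the top doses of both gingers and Scutellariae.

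With Coptidis at 210 ug/mL some members fell at every step from citrate export to the final acylation. The falls were deepest in PNPLA3, FADS2, DGAT1 and SCD. Other members of elongation, desaturation, acyl-CoA activation and triglyceride assembly rose, as given below. PNPLA3, a lipid droplet protein with lipase and acyltransferase activity that SREBP-1 and ChREBP induce, stood at 25.5, 24.9 and 27.0 CPM in the vehicle libraries. It stood at 3.47, 3.08 and 2.71 CPM with Coptidis 210, a log2 change of -3.06 ± 0.11 (SE) with adjusted p = 1.06e-29. The highest treated library lay far below the lowest vehicle library. The gene lies at chr22:43923739-43964488 on the plus strand (GRCh38) and overlaps SAMM50 on the same strand in GENCODE 29, so reads could be shared between them.

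The desaturases other than FADS3 fell steeply. SCD, which puts the double bond into stearate, stood at 2080.2, 2032 and 2099.7 CPM in vehicle and 500.0, 512 and 515 CPM with Coptidis 210, a log2 change of -2.02 ± 0.0402 (adjusted p = 1.54e-40). FADS2, the delta-6 desaturase of polyunsaturated chains, went from 212, 201 and 214 CPM to 29.9, 32.7 and 31.2 CPM, a log2 change of -2.74 ± 0.0557 (adjusted p = 3.83e-40). FADS1, the delta-5 desaturase, changed by -1.39 ± 0.0366. FADS1 (chr11:61799625-61829318, minus strand) and FADS2 (chr11:61792980-61867354, plus strand) overlap in GENCODE 29, and the strand setting of the counting is not given in the sources used here. None of these 3 genes had a treated library within the vehicle range. FADS3, a neighbour of FADS1 and FADS2 that acts on sphingoid bases, rose instead, by 1.3 ± 0.0663 from 11.6 ± 0.435 to 28.5 ± 1.90 CPM.

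Genes of acetyl-CoA supply and palmitate synthesis fell as well, with all 6 members of these classes called lower. ACSS2, which makes acetyl-CoA from acetate, stood at 109, 114 and 117 CPM in vehicle and 34.4, 37.6 and 33.3 CPM with Coptidis 210 (log2 change -1.69 ± 0.0391, adjusted p = 9.62e-38). SLC25A1, which exports citrate, changed by -1.26 ± 0.0389. ACLY, which cleaves that citrate, fell less, from 534, 528 and 545 CPM to 327, 344 and 338 CPM (-0.67 ± 0.0262). FASN, the fatty acid synthase itself, stood at 1414, 1384 and 1465 CPM in vehicle and 593, 623 and 600.4 CPM with Coptidis (-1.23 ± 0.0893, adjusted p = 2.25e-17). ACACA went from 191, 193 and 191 to 95.1, 100.5 and 105 CPM (-0.93 ± 0.0677), and ACACB, the isoform at the mitochondrial membrane, changed by -1.13 ± 0.0951. The 2 groups of libraries did not overlap for any of these genes.

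Of 7 members of elongation, 6 fell. ELOVL6, which lengthens palmitate to stearate, stood at 51.5, 56.1 and 53.9 CPM in vehicle and 21.7, 22.8 and 25.5 CPM with Coptidis 210 (-1.21 ± 0.0508, adjusted p = 9.73e-27). ELOVL2, which lengthens polyunsaturated chains, changed by -1.01 ± 0.0363, and the reductases HSD17B12 and TECR by -0.58 ± 0.0416 and -0.74 ± 0.0490. ELOVL5 and ELOVL7 changed less, by -0.14 and -0.17, and the call of ELOVL7 was lost under 8 of 12 alternative settings. ELOVL1, which makes very long saturated chains, rose by 0.84 ± 0.0522, from 49.4 ± 1.84 to 88.5 ± 4.72 CPM.

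Triglyceride assembly split between isoforms. GPAT3 (chr4:83535914-83605875, plus strand), an endoplasmic reticulum acyltransferase that takes the same step as GPAM, stood at 10.6, 10.2 and 10.5 CPM in vehicle and 223, 222 and 221 CPM with Coptidis 210. This was 21.3-fold, a log2 change of 4.41 ± 0.0523 (adjusted p = 1.23e-49), the largest change of any member in any comparison with vehicle. GPAM, the mitochondrial enzyme, went the other way, from 224, 228 and 218 CPM to 99.7, 101 and 105 CPM (-1.13 ± 0.0481, adjusted p = 1.49e-26). GPAT4, a relative of GPAT3, rose by 0.49 ± 0.0345. Of the acyltransferases of the next step, AGPAT1, AGPAT3 and AGPAT5 fell, with log2 changes of -0.48, -0.69 and -0.26, and AGPAT2, with few reads, rose by 1.04 ± 0.17 from 2.27 ± 0.503 to 4.65 ± 0.344 CPM.

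The lipins and the DGAT enzymes, which make diacylglycerol and triglyceride, also differed within each pair. LPIN1 stood at 41.8, 43.2 and 43.7 CPM in vehicle and 34.5, 35.9 and 35.2 CPM with Coptidis 210 (-0.29 ± 0.0581), while LPIN2 rose by 0.34 ± 0.0452. DGAT1 went from 75.2, 71.6 and 77.7 CPM to 17.1, 16.9 and 16.2 CPM (-2.16 ± 0.0581, adjusted p = 6.04e-35), and DGAT2 from 69.4, 71.3 and 70.4 CPM to 41.1, 41.3 and 41.7 CPM (-0.77 ± 0.0410). Both pairs of groups lay apart for the DGAT genes, and DGAT1 had the deeper fall. DGAT1 overlaps HSF1 on the opposite strand. Other members overlap coding genes on the opposite strand: ACSL5 (ZDHHC6), ACSS2 (GGT7), SREBF1 (RAI1), TECR (DNAJB1), ACACA (C17orf78) and AGPAT1 (EGFL8 and PPT2-EGFL8). On the same strand ACSL4 overlaps KCNE5 and FADS2 overlaps FEN1. Reads could be shared in each of these cases.

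Acyl-CoA synthetases changed in both directions. ACSL5, which resides partly on mitochondria, stood at 73.4, 71.8 and 68.4 CPM in vehicle and 319, 326 and 309 CPM with Coptidis 210 (4.46-fold, log2 change 2.16 ± 0.0331, adjusted p = 3.12e-45). ACSL4, which prefers arachidonate, changed by -1.16 ± 0.0503, and ACSL3, which serves lipid droplet growth, by -0.33 ± 0.0344. The transcription factors fell too. MLXIPL went from 119, 116 and 117 CPM to 56.1, 53.9 and 51.4 CPM (-1.12 ± 0.0859, adjusted p = 1.60e-16) and SREBF1 from 59.9, 58.6 and 62.7 CPM to 43.2, 43.8 and 40.0 CPM (-0.51 ± 0.0639, adjusted p = 8.05e-10). The count of SREBF1 sums its isoforms, so SREBP-1a and SREBP-1c cannot be told apart.

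At 42 ug/mL of Coptidis, 6 members rose and 22 fell, where 46.9% of all tested genes were called in either direction. FADS2 stood at 72.6, 74.5 and 71.6 CPM (-1.52), ACSS2 at 58.5, 55.8 and 55.9 (-1.0) and PNPLA3 at 12.3, 13.4 and 12.8 (-1.01). GPAT3 was already at 48.5, 49.1 and 48.9 CPM (2.23), whereas GPAM was at 193, 199 and 194 (-0.19). The fall of GPAM lay mostly between 42 and 210 ug/mL, a step of -0.94 ± 0.0482 (adjusted p = 1.04e-22), and the step from 8.4 to 42 was -0.078 ± 0.0468 (adjusted p = 0.22). ELOVL1 and AGPAT2 showed their rises at the upper step, with 0.87 and 1.12, against -0.032 and -0.10 at the lower, which were not called. LPIN1 did the reverse, with -0.21 (called) at the lower step and -0.0065 (not called) at the upper.

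At 8.4 ug/mL of Coptidis, 2 members rose and 6 fell (all genes, either direction: 16.0%). GPAT3 rose to 15.6, 15.5 and 15.5 CPM (0.57 ± 0.0622) and ACSL3 rose by 0.21 ± 0.0343. ACSL3 was also higher at 42 ug/mL, by 0.15, and lower at 210, at -0.33, with -0.48 ± 0.0344 between the upper doses. ACSL5 fell slightly, at -0.16 ± 0.0347, before its rises of 0.66 and 2.16 at the higher doses. The falls were in FADS2, AGPAT3, ACSL5, ELOVL2, FADS1 and DGAT1, between -0.20 and -0.14, and the call of DGAT1 was lost without any 1 of 5 of the 6 libraries compared. FASN, at 0.17, and SREBF1, at 0.16, were not called.

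**Figure D3:**
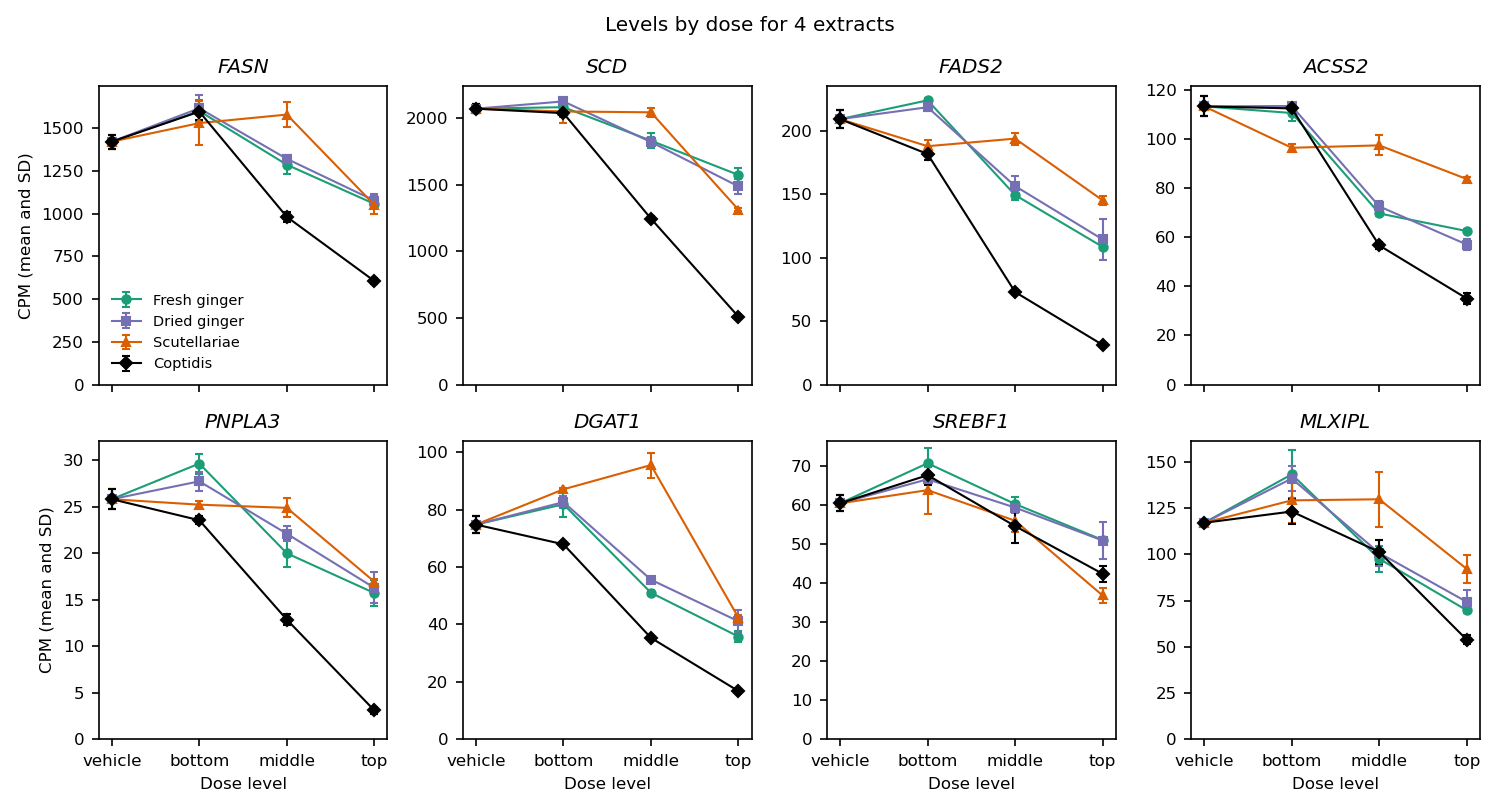
Mean level in CPM with its SD (bars) of 8 genes in vehicle and at the bottom, middle and top dose (evenly spaced levels: 20, 100 and 500 ug/mL, for Coptidis 8.4, 42 and 210) of 4 extracts; each point is 3 libraries. Coptidis (black) reaches the lowest level of all 8 genes but SREBF1, where Scutellariae (orange) is lowest, and DGAT1 with Scutellariae is above vehicle at the bottom and middle doses and below it at the top.

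Fresh and dried ginger at 500 ug/mL lowered GPAM most among the members. GPAM stood at 224, 228 and 218 CPM in vehicle, 97.7, 86.7 and 90.7 CPM with fresh ginger and 85.3, 90.0 and 91.0 CPM with dried ginger, log2 changes of -1.28 ± 0.0486 and -1.33 ± 0.0485 (adjusted p = 1.09e-27 and 3.90e-28). DGAT1 stood at 36.5, 33.6 and 37.1 and 39.3, 38.2 and 45.7 CPM (-1.06 and -0.87), DGAT2 at 36.7, 40.1 and 39.8 and 42.6, 39.4 and 39.9 CPM (-0.86 and -0.79). For all 3 of these acyltransferases of triglyceride assembly, no ginger library reached the vehicle range. ACSS2 stood at 63.4, 62.2 and 62.2 CPM and 58.0, 54.7 and 58.6 CPM (-0.86 and -0.99), and FADS2 at 109.7, 109 and 107 CPM and 133, 104 and 106 CPM (-0.95 and -0.87). Replicate 1 of dried ginger 500, which stood apart, had the highest FADS2 value of its group.

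The core enzymes fell less with the gingers. FASN stood at 1054, 1065 and 1051 CPM with fresh and 1102, 1091 and 1036 CPM with dried ginger (-0.43 ± 0.0879 and -0.40 ± 0.0879), and SCD at 1630.4, 1539 and 1550.5 and 1550.1, 1463 and 1449 CPM (-0.40 and -0.48). ACACA changed by -0.37 and -0.40, ACLY by -0.26 and -0.28 and ELOVL6 by -0.42 and -0.41, all called. PNPLA3 stood at 16.9, 14.2 and 16.0 and 18.2, 15.6 and 15.0 CPM (-0.71 and -0.67). MLXIPL stood at 68.4, 69.9 and 70.9 and 78.6, 67.1 and 77.1 CPM (-0.75 and -0.66), a larger change than that of SREBF1, at -0.24 and -0.25. LPIN1 was not called with either, at 0.07 and 0.024.

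The members that rose with both gingers were GPAT3, ACSL5, FADS3, LPIN2, GPAT4 and ELOVL1. GPAT3 stood at 46.4, 43.5 and 46.4 CPM with fresh and 38.2, 37.5 and 35.6 CPM with dried ginger (4.35-fold and 3.56-fold). ACSL5 stood at 155, 153 and 161 and 134, 139 and 145 CPM (2.19-fold and 1.96-fold). FADS3 rose by 0.81 and 0.71, LPIN2 by 0.68 and 0.53 and GPAT4 by 0.36 and 0.27 on the log2 scale. The rise of ELOVL1, at 0.19 and 0.20, was lost for dried ginger without replicate 1, the library that stood apart. Fresh ginger also raised ACSL3 by 0.15.

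At 100 ug/mL fresh ginger raised 6 members and lowered 14 (all genes, either direction: 22.2%), and dried ginger raised 4 and lowered 13 (all genes: 17.5%). GPAM was at -0.81 and -0.62, ACSS2 at -0.70 and -0.64 and GPAT3 at 0.74 and 0.68, all called. FASN, at -0.14 and -0.11, was not called with either. At 20 ug/mL fresh ginger raised 3 members, with 0 lowered (all genes, either direction: 5.10%), 4 lower at an unadjusted p under 0.05 and 6 called in DESeq2 in both directions together. These 3 were MLXIPL (0.29 ± 0.0805), SREBF1 (0.23 ± 0.0610) and SLC25A1 (0.16 ± 0.0362). MLXIPL stood at 130.2, 143 and 156 CPM and SREBF1 at 66.6, 71.2 and 74.2 CPM, against 117 ± 1.44 and 60.4 ± 2.07 in vehicle. The median log2 change of these factors against vehicle was 0.26 here. It was also above 0, with neither called, at the bottom dose of each other extract. The values were 0.20 with dried ginger, 0.16 with Pinelliae, 0.11 with Scutellariae, 0.12 with Coptidis and 0.18 with Zizyphi. The calls of both factors were lost without vehicle replicate 1, without vehicle replicate 2 and without fresh ginger 20 replicate 3, and that of MLXIPL also without vehicle replicate 3. That of SLC25A1 was lost without vehicle replicate 1 and without fresh ginger 20 replicate 3. The count of 3 became 0 without vehicle replicate 1 and 9 without the 3 libraries that stood apart, none of which is in this comparison. Dried ginger at 20 ug/mL had 0 members called by edgeR (all genes: 0.0841%), with 5 higher at an unadjusted p under 0.05 and 0 in DESeq2.

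Scutellariae at 500 ug/mL had the lowest SREBF1 of any group. SREBF1 stood at 59.9, 58.6 and 62.7 CPM in vehicle and 38.1, 37.8 and 34.5 CPM with Scutellariae, a log2 change of -0.72 ± 0.0651 (adjusted p = 1.86e-13), with no overlap between the libraries. MLXIPL changed by -0.35 ± 0.0826, to 100.4, 90.5 and 85.5 CPM. The difference between the factors' changes was not tested.

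Of the enzymes, GPAM fell to 108, 111 and 104 CPM (-1.05 ± 0.0480), ACSL4 changed by -0.99 ± 0.0501 and DGAT1 fell to 43.4, 41.9 and 41.7 CPM (-0.82 ± 0.0519). SCD stood at 1301, 1310.1 and 1325 CPM (-0.66), FADS2 at 141, 148 and 146 (-0.53), FASN at 1087, 1077 and 989 (-0.43) and ACACA at 137, 141 and 139 (-0.46). DGAT2 stood at 46.4, 47.7 and 43.7 CPM (-0.62), ELOVL6 at 41.8, 44.1 and 45.6 (-0.30) and PNPLA3 at 16.6, 17.2 and 17 (-0.61). ACSS2, at 84.5, 83.7 and 83.1 CPM (-0.44), and ACLY, at 505, 508 and 509 CPM (-0.078), changed less, and the call of ACLY was lost without vehicle replicate 3.

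GPAT3 stood at 77.2, 75.9 and 80.9 CPM with Scutellariae 500 (7.47-fold, 2.90 ± 0.0533) and ACSL5 at 188, 187 and 197 CPM (2.68-fold). FADS3 reached its highest group mean here, 32 ± 1.83 CPM, a log2 change of 1.46 ± 0.0660 (adjusted p = 9.60e-25). ELOVL1 rose by 0.50 and GPAT4 by 0.25. LPIN1, a phosphatidate phosphatase that also acts as a coactivator, rose to 57.0, 52.1 and 54.9 CPM (0.35 ± 0.0560), while LPIN2, at -0.052, was not called. ELOVL7 rose by 0.20, with overlapping groups, and that call was lost without vehicle replicates 1 or 2 or Scutellariae 500 replicates 1 or 2.

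At 100 ug/mL Scutellariae raised 4 members and lowered 7 (all genes, either direction: 14.6%), and at 20 ug/mL it raised 2 and lowered 3 (all genes: 4.74%). DGAT1 was higher than vehicle at both, with 100.1, 91.4 and 95.3 CPM (0.35 ± 0.0485, adjusted p = 1.91e-07) and 87.0, 87.5 and 86.9 CPM (0.22 ± 0.0488, adjusted p = 0.00255). Dried ginger 20 also lay above the vehicle range of 71.6 to 77.7 CPM, without a call, at 84.1, 80.2 and 83.7. Coptidis 8.4 lay below that range, at 67.2, 67.7 and 68.9. From 100 to 500 ug/mL of Scutellariae, DGAT1 changed by -1.18 ± 0.0512 (adjusted p = 2.81e-25). The lipins also turned within this extract. LPIN1 was at -0.19 against vehicle at 100 ug/mL and rose by 0.54 ± 0.0567 from there to 500. LPIN2 was at -0.39 at 100 ug/mL, and rose by 0.34 ± 0.0466 to 500. ACSL3, at -0.24, ACSL4, at -0.42, GPAM, at -0.34, ACSS2, at -0.22, and DGAT2, at -0.17, were lower at 100 ug/mL. GPAT3 was higher at both doses, by 0.62 and 0.37, and FADS3 and SLC25A1 were higher at 100, by 0.20 and 0.16. The call of FADS3 at 100 ug/mL was lost under 8 of 12 alternative settings, and that of LPIN1 without vehicle replicates 2 or 3 or Scutellariae 100 replicate 3. At 20 ug/mL the calls of GPAM (-0.15) and LPIN2 (-0.15) were each lost under 6 of 12 alternative settings, and that of ACSS2 (-0.23) under none. The count of 5 at 20 ug/mL was 3 without vehicle replicate 1.

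Wortmannin raised members at most steps of the pathway, and of the 3 genes of malonyl-CoA and palmitate synthesis only ACACB was called. ACSS2 stood at 109, 114 and 117 CPM in vehicle and 164, 164 and 175 CPM with wortmannin (0.57 ± 0.0349, adjusted p = 3.36e-18). PNPLA3 stood at 36, 34.1 and 35.2 CPM (0.44 ± 0.0764), MLXIPL at 159.7, 155 and 168 CPM (0.46 ± 0.0804), ELOVL6 at 66.2, 66.9 and 65.4 CPM (0.30 ± 0.0456) and LPIN1 at 56.4, 53.5 and 54.0 CPM (0.35 ± 0.0558). For these 5 genes each wortmannin library lay above each vehicle library. ELOVL7, an elongase of saturated chains, rose by 0.55 ± 0.0740 and ACACB by 0.40 ± 0.0836. AGPAT1, AGPAT3, DGAT2, ACSL5, ELOVL5 and ACLY rose by smaller amounts, from 0.23 for AGPAT1 to 0.10 for ACLY, with ACLY at 579.8, 563 and 579.8 CPM and DGAT2 at 77.8, 78.1 and 78.2 CPM.

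FASN, SCD and SREBF1 were not called with wortmannin. FASN stood at 1481, 1457 and 1496 CPM (0.057 ± 0.0876, adjusted p = 0.678), SCD at 2218, 2205 and 2186 CPM (0.089 ± 0.0385, adjusted p = 0.0713) and SREBF1 at 61.4, 59.3 and 59.7 CPM (-0.0056 ± 0.0618, adjusted p = 0.963). ACACA (-0.019), GPAM (0.089), FADS2 (-0.00067) and GPAT3 (0.0076) were not called either. The members that fell were AGPAT5 (-0.27 ± 0.0454), ACSL3 (-0.16 ± 0.0343), ELOVL1 (-0.14 ± 0.0546) and LPIN2 (-0.12 ± 0.0458). The calls of ELOVL1 and LPIN2 were lost without vehicle replicates 1 or 3 or wortmannin replicates 1 or 2, and that of ACSL5 without vehicle replicate 3. Of the 10 hepatocyte markers, 6 also rose with wortmannin, and their part in these changes was not tested.

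**Figure D4:**
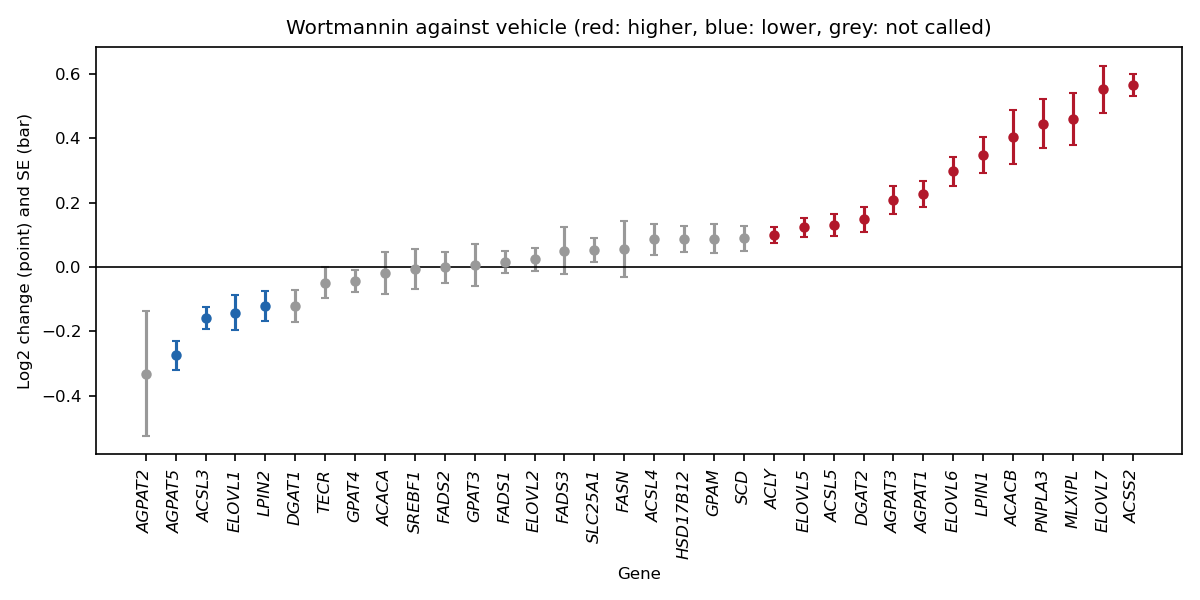
Log2 change of each of the 34 tested genes between wortmannin and vehicle (point) with its standard error from the model (bar), ordered by size; red is called higher, blue called lower and grey not called. ACSS2 and ELOVL7 lie highest, at 0.57 and 0.55, and FASN, SCD and SREBF1 are grey, near 0.

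Pinelliae and Zizyphi moved few members at 500 ug/mL. DGAT1 was higher than vehicle with both at 500 ug/mL. It stood at 96.2, 82.1 and 97.8 CPM with Pinelliae (0.30 ± 0.0485, adjusted p = 6.94e-05) and 86, 87.5 and 86.6 CPM with Zizyphi (0.21 ± 0.0484, adjusted p = 0.00693), against 75.2, 71.6 and 77.7 CPM in vehicle. The call with Zizyphi was lost without vehicle replicate 2. At the lower doses, without a call, DGAT1 stood at 82.8, 80.7 and 82.8 CPM with Pinelliae 100 and 83.5 and 80.3 with Pinelliae 20. With Zizyphi it stood at 77.0, 87.2 and 85.1 CPM at 100 ug/mL and 83.4, 83.7 and 79.6 at 20. Between the top and bottom dose DGAT1 was not called for either extract, which does not show that the doses were alike. With Pinelliae 500, FADS1 fell, with a log2 change of -0.14 ± 0.0349 (adjusted p = 0.0104), a call lost without Pinelliae 500 replicate 1 or 3. The count of 2 members with Pinelliae 500 was 6 without its replicate 2, and the count of 1 with Zizyphi 500 was 0 without vehicle replicate 2. FASN stood at 1568, 1426 and 1544 CPM with Pinelliae and 1495, 1644 and 1518 CPM with Zizyphi (0.09 ± 0.0876 and 0.13 ± 0.0876), not called. SREBF1 (0.074 and 0.14) and SCD (-0.077 and -0.00092) were not called either.

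At lower doses of these extracts edgeR called 0 members with Pinelliae 100 (all genes, either direction: 0.204%), 0 with Pinelliae 20 (0.00601%) and 0 with Zizyphi 100 (0.228%). At an unadjusted p under 0.05 these comparisons had 4, 3 and 7 members higher and 4, 1 and 0 lower, and DESeq2 called 0, 0 and 1. Zizyphi 20 raised 1 member and lowered 1 (all genes, either direction: 1.99%), TECR at 0.17 ± 0.0470 and ELOVL2 at -0.13 ± 0.0352. Both calls were lost without replicate 1 of that group, which stood apart. The count of 2 was 0 without vehicle replicate 1 and 9 without Zizyphi 20 replicate 3.

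The comparison of the top with the bottom dose of an extract uses no vehicle library and joins samples whose titles carry the same leading number. Coptidis had 7 members higher and 27 lower at 210 than at 8.4 ug/mL, where 33.0% of all tested genes were higher and 32.8% lower. Fresh ginger had 7 higher and 22 lower (all genes: 24.4% and 23.6%). Dried ginger had 6 higher and 22 lower (all genes: 20.9% and 20.1%). Scutellariae had 8 higher and 22 lower (all genes: 24.5% and 25.4%). These comparisons share no library with each other, although the top doses are those already set against vehicle. GPAT3 was 14.3-fold, 4.35-fold, 3.78-fold and 5.80-fold higher at the top dose of Coptidis, fresh ginger, dried ginger and Scutellariae. ACSL5 was 4.99-fold, 2.22-fold, 1.92-fold and 2.63-fold higher.

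The core genes were lower at the top dose with all 4 of these extracts. FASN was at -1.40 ± 0.0896, -0.60 ± 0.0880, -0.59 ± 0.0880 and -0.54 ± 0.0880 in the same order of extracts. SREBF1 was at -0.67, -0.47, -0.39 and -0.80, and MLXIPL at -1.19, -1.04, -0.93 and -0.49, all called. PNPLA3 was at -2.93, -0.92, -0.77 and -0.57. ACLY, at -0.038 with Scutellariae, was not called, against -0.72 with Coptidis.

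Pinelliae had 1 member higher and 4 lower at 500 than at 20 ug/mL (all genes: 1.20% and 0.703%), and the bottom dose had 2 libraries. Zizyphi had 4 higher and 1 lower (all genes: 4.39% and 2.82%). The Pinelliae falls were FADS1 (-0.21), DGAT2 (-0.17), ACSS2 (-0.16) and ACSL3 (-0.15), and the count of 5 fell to 1 without Pinelliae 20 replicate 3 and was 10 without the 3 libraries that stood apart, of which none is in this comparison. The Zizyphi rises were GPAT3, LPIN2, ELOVL2 and ACSL5, at 0.21, 0.20, 0.14 and 0.13. That count of 5 was 0 without Zizyphi 20 replicate 1 and 13 without Zizyphi 20 replicate 3.

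Set side by side per kilobase of exon, several isoform pairs changed places. In vehicle GPAM was at 22.8 ± 0.542 CPM per kb (SD, n = 3) and GPAT3 at 3.01 ± 0.0552. With Coptidis 210 they stood at 10.4 ± 0.261 and 64.1 ± 0.229, and with Scutellariae 500 at 11.0 ± 0.341 and 22.5 ± 0.747. With fresh ginger 500 the levels were 9.35 ± 0.566 and 13.1 ± 0.483, and with dried ginger 500 9.05 ± 0.307 and 10.7 ± 0.392. Per kilobase GPAT3 was the higher of the pair in all 4 top-dose groups. In CPM it was the higher only with Coptidis 210. The order in the other groups thus rests on the merged exon lengths, 3468 bases for GPAT3 and 9808 for GPAM. GPAT4, the other endoplasmic reticulum enzyme, was at 8.0 ± 0.0715 in vehicle and 11.3 ± 0.111 with Coptidis 210.

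Among the acyl-CoA synthetases, ACSL4 was at 111 ± 1.85 CPM per kb in vehicle and 49.9 ± 1.91 with Coptidis 210, and ACSL5 went from 16.8 ± 0.605 to 75.0 ± 2.02. ACSL5 was the higher of these with Coptidis 210, but stayed below ACSL4 with Scutellariae 500, at 45.0 ± 1.24 against 56.0 ± 0.793. FADS2 was at 19 ± 0.643 in vehicle and FADS3 at 1.85 ± 0.0692, and with Coptidis 210 they stood at 2.83 ± 0.128 and 4.54 ± 0.303. In CPM, ACSL5 had a mean of 318 and ACSL4 of 320 with Coptidis 210. FADS3 stood at 30.0, 29.2 and 26.4 CPM there and FADS2 at 29.9, 32.7 and 31.2. Neither ACSL5 nor FADS3 had the higher mean in CPM, so both orders rest on the merged exon lengths. DGAT1 was above DGAT2 in vehicle, at 18.1 ± 0.744 against 8.90 ± 0.123, and below it with Coptidis 210, at 4.05 ± 0.111 against 5.23 ± 0.0381. Merged exon lengths stand in for transcript lengths here, and which transcript each cell used was not measured.

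**Figure D5:**
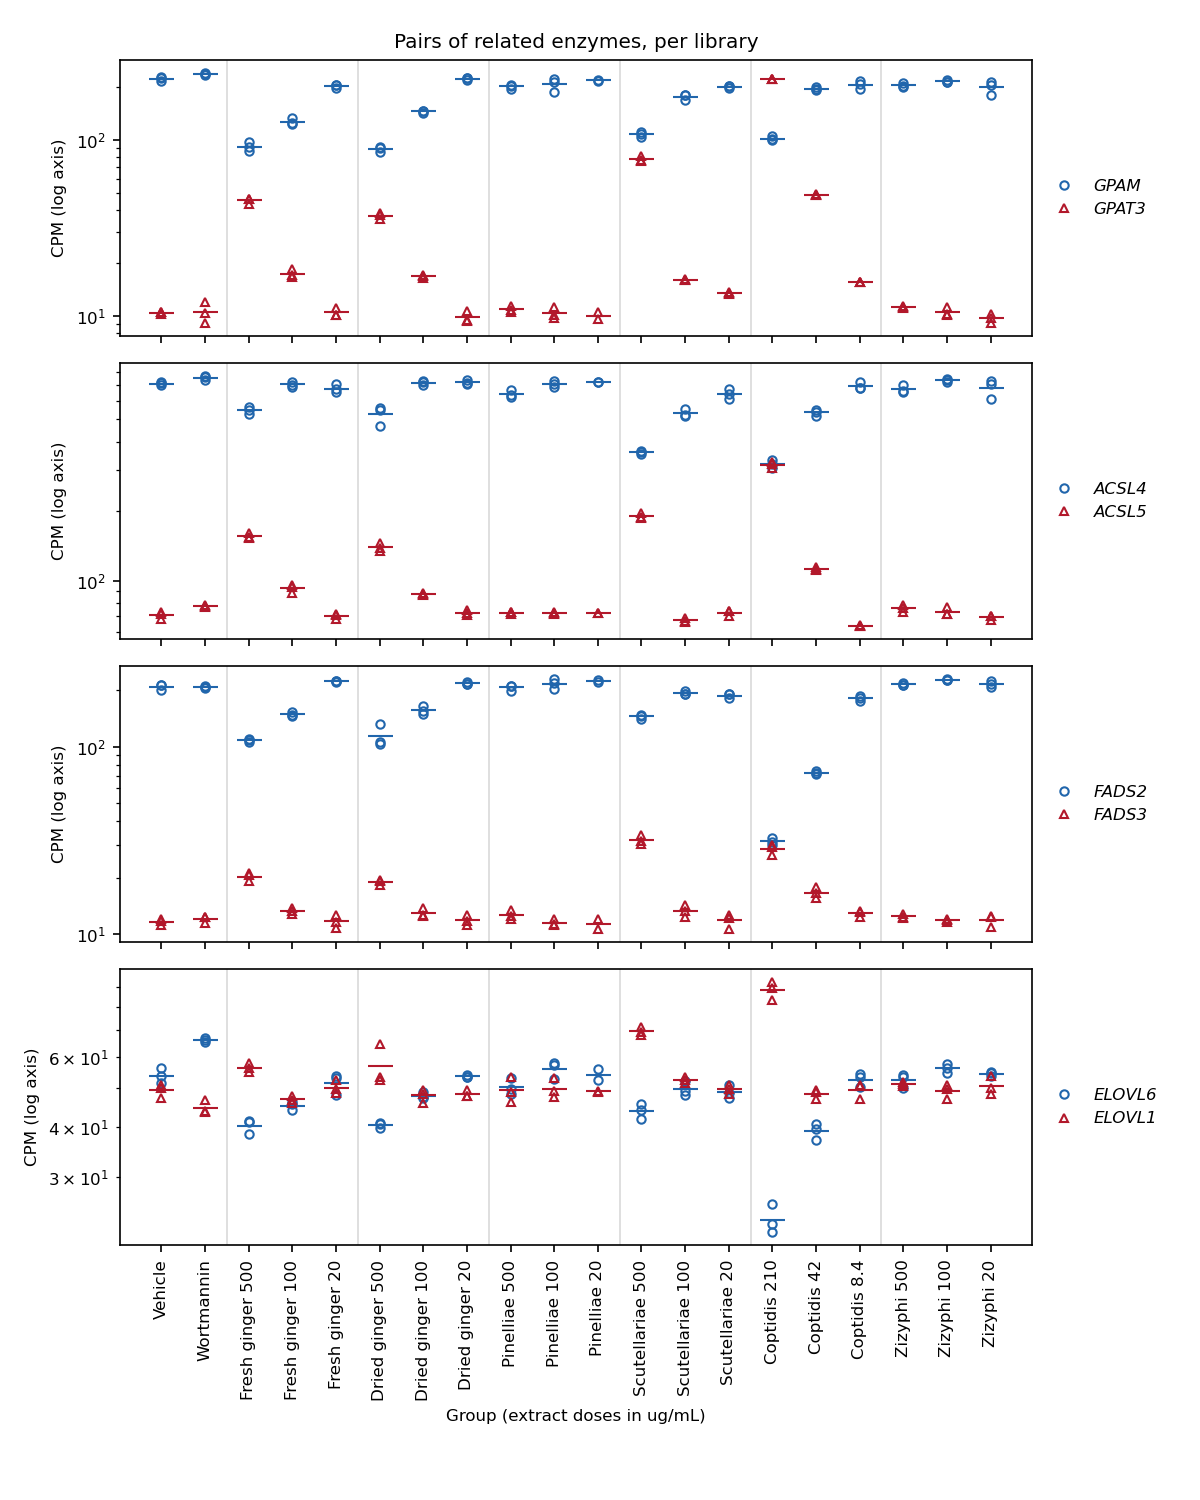
Level in CPM (log axis) of 4 pairs of related enzymes in each library (points) of all 20 groups, with the group mean (line); blue circles are GPAM, ACSL4, FADS2 and ELOVL6 and red triangles GPAT3, ACSL5, FADS3 and ELOVL1. With Coptidis 210 GPAT3 stands near 222 CPM and GPAM near 102, and ELOVL1 stands above ELOVL6. CPM are not corrected for length, so the height of a crossing has no meaning between genes.

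Fresh and dried ginger were compared directly at 500 ug/mL. Of the 34 members, 2 were higher with fresh ginger and 2 lower, where 0.961% of all tested genes were higher and 0.871% lower. GPAT3 was 0.29 ± 0.0470 higher (adjusted p = 1.05e-04) and ACSL5 0.17 ± 0.0319 (adjusted p = 0.00114) on the log2 scale, with fresh libraries at 46.4, 43.5 and 46.4 and dried at 38.2, 37.5 and 35.6 CPM for GPAT3. DGAT1 was at -0.20 ± 0.0555 (adjusted p = 0.0468) and ELOVL2 at -0.16 ± 0.0355 (adjusted p = 0.00677). The count of 4 was 2 without fresh ginger 500 replicate 3, and a fit of these 2 groups alone called 0 members. For FASN the difference was -0.026 ± 0.0879, for SCD 0.081 ± 0.0386 and for GPAM 0.047 ± 0.0499, with adjusted p of 0.945, 0.365 and 0.779, which does not show that the gingers act alike.

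Other genes of the pathway were counted from lists that also hold the controls of SREBP-1, the suppliers of NADPH, AMP-activated kinase and further enzymes. Of 15 tested controllers of SREBP-1, LXR and ChREBP, 8 rose and 3 fell with Coptidis 210 (all genes: 34.8% and 34.5%). The largest changes were in INSIG1, which retains the SREBP complex in the endoplasmic reticulum and is itself a SREBP target (-2.28 ± 0.67, adjusted p = 0.00222), and in PPARG, a nuclear receptor of fat storage (1.46 ± 0.0600, adjusted p = 3.49e-27). With fresh ginger 500, 6 rose and 3 fell (all genes: 23.5% and 22.5%). The largest values there were INSIG1 at -0.98 ± 0.56, which was not called (adjusted p = 0.151), and PPARG at 0.85 ± 0.0626. The SE of INSIG1 was far wider than the 0.133 or less of the other genes of this list with fresh ginger 500. The sizes of its changes are therefore imprecise, and its level is not given here. With dried ginger 500, 6 rose and 3 fell (all genes: 21.5% and 20.9%), with PPARG at 0.73 and INSIG1 at -0.70 (not called). With Scutellariae 500, 5 rose and 3 fell (all genes: 24.7% and 25.5%), with PPARG at 0.54 and RXRA, the partner of LXR, at -0.45. With wortmannin 2 rose and 2 fell (all genes: 16.2% and 16.0%), and the largest values were INSIG1 at -0.64 (not called) and NR1H3, which encodes LXR alpha, at 0.29.

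NADPH feeds each round of chain growth. Of 5 tested genes of NADPH supply, 3 rose and 2 fell with Coptidis 210, where 34.8% of all tested genes rose and 34.5% fell, with IDH1, the cytosolic isocitrate dehydrogenase, at -1.41 ± 0.0300 and TKT, of the pentose phosphate pathway, at 0.68 ± 0.0364. The counts were 3 and 2 with fresh ginger, 3 and 2 with dried ginger and 4 and 1 with Scutellariae at 500 ug/mL. Over all tested genes the shares higher and lower were 23.5% and 22.5%, 21.5% and 20.9%, and 24.7% and 25.5% in that order. IDH1 was at -0.67, -0.68 and -0.73 and TALDO1 at 0.43, 0.40 and 0.57 in these. With wortmannin 4 of 5 fell (all genes: 16.0%), with TKT at -0.25.

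AMP-activated kinase restrains ACACA and SREBP-1 by phosphorylation, which transcripts do not show. Of its 6 subunit genes, 3 rose and 2 fell with Coptidis 210 (all genes: 34.8% and 34.5%), with the catalytic subunits PRKAA2 at 1.39 ± 0.0597 and PRKAA1 at 0.68 ± 0.0444. The counts were 3 and 1 with fresh ginger, 3 and 1 with dried ginger (all genes: 23.5% and 22.5%, and 21.5% and 20.9%), and 2 rose with Scutellariae (all genes: 24.7%). PRKAA2 was at 0.62, 0.59 and 0.49 with fresh ginger, dried ginger and Scutellariae, and PRKAA1 at 0.38, 0.26 and 0.21.

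Of 16 further enzymes of lipid synthesis, 2 rose and 10 fell with Coptidis 210 (all genes: 34.8% and 34.5%). MOGAT1, a monoacylglycerol acyltransferase, was at -2.66 ± 0.35 and ELOVL4, an elongase of very long chains, at 2.14 ± 0.47. With fresh ginger 500, 3 rose and 9 fell (all genes: 23.5% and 22.5%), with ELOVL3 at -1.89 and MOGAT1 at -1.34. With dried ginger 500, 2 rose and 7 fell (all genes: 21.5% and 20.9%), with HACD4, a dehydratase of elongation, at 1.51 and MOGAT1 at -0.88. With Scutellariae 500, 1 rose and 7 fell (all genes: 24.7% and 25.5%), with ELOVL4 at 1.04 (not called) and MOGAT1 at -0.98. With wortmannin 5 rose and 4 fell (all genes: 16.2% and 16.0%), the largest values being HACD4 at 1.23 ± 0.48 and ELOVL3 at 0.90 ± 0.48 (not called). With fresh ginger 500 the SEs of ELOVL3, ELOVL4, HACD4 and MOGAT1 were 0.73, 0.53, 0.52 and 0.30, against 0.129 or less for the others. The sizes of their changes are imprecise, and their levels are not given here.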

How the data were processed

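The authors deposited expected counts per gene as 1 table, and the submitters' processing notes list RSEM 1.3.3, STAR 2.7.3a, Trim Galore 0.6.5, FastQC 0.11.9 and the build GRCh38, with no roles. Gene annotation and strand setting: not given in the sources used here. Identifiers were matched to GENCODE 29 for symbols, lengths and overlaps (56558 of 60675). Of 267 columns, 59 matched this series by title and 208 were not used. Among values above 0, 24.44% had decimals, and expected counts were rounded.

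Genes were filtered with filterByExpr, scaled by TMM and fitted with edgeR 4.0.16 (R 4.3.3, limma 3.58.1) as 20 group means with 39 residual degrees of freedom. Quasi-likelihood tests gave p-values, adjusted by Benjamini-Hochberg over 16641 genes, and standard errors were taken as the size of the log2 change over the square root of F. Steps were tested on simulated data. CPM use TMM-scaled totals, and totals of 21582603 to 31392069 counts set the precision of low genes. The 26 comparisons with counts were wortmannin and each extract dose against vehicle, top against bottom dose, and fresh against dried ginger; single dose steps were tested for named members.

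The members and lists were chosen with earlier results of these data known. Per-library values are given for 12 genes named in advance and those whose group means spanned over 4-fold, and other members by role; where genes of another list are named in a comparison, they are its 2 largest changes, except 1 that is not reported here. Same-numbered replicates did not deviate together (correlations of -0.062 to 0.077 over 26 comparisons), so no pairing was used. Alternatives were RLE size factors, no filter, a replicate block, leaving out libraries, a fit of 2 groups and DESeq2 1.42.0. All titles carry 1 batch name, and a leading number that differs between some extracts and vehicle, of unstated meaning; where it differs, it cannot be told apart from treatment. The series text says that samples of low RNA concentration were excluded.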

Additional observations from a re-analysis of the deposited data

How the results depend on the processing

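Against vehicle and between top and bottom doses, counts for wortmannin, for Coptidis, and for both gingers and Scutellariae at 100 and 500 ug/mL stayed within 1.5 times under all alternatives run. Of 371 called member values, 368 were called with RLE size factors, 344 without the filter, 370 with the replicate block, 361 without the 3 libraries that stood apart, 352 in fits of 2 groups and 365 in DESeq2; leaving out 1 library kept 2063 of 2221, and none reversed. Weak comparisons moved, and the cause was not tested. Without the filter, counts were 2 for dried ginger 20, 5 for Pinelliae 500, 1 for Pinelliae 20, 2, 3 and 4 for Zizyphi 500, 100 and 20, and 2 for Pinelliae 500 against 20. The replicate block gave 5 for Pinelliae 500 and moved no other count by over 1.5 times; the replicate numbers do not pair the samples. Without the 3 libraries, counts were 9 for fresh ginger 20, 8 for Pinelliae 500, 10 for Scutellariae 20, 5, 3 and 1 for Zizyphi 500, 100 and 20, 10 for Pinelliae 500 against 20 and 1 for Zizyphi 500 against 20. Fits of 2 groups gave 7 for fresh ginger 20, 3 for dried ginger 20, 5 and 2 for Pinelliae 500 and 20, 8 for Scutellariae 20, 8, 4 and 0 for Zizyphi 500, 100 and 20, 1 and 0 for Pinelliae and Zizyphi 500 against 20 and 0 for fresh against dried ginger. DESeq2 gave 6 for fresh ginger 20 and Pinelliae 500, 8 for Scutellariae 20, and 1 and 5 for Zizyphi 100 and 20. Leaving out 1 library at a time, ranges were 0 to 4 for fresh ginger 20, 1 to 6 for Pinelliae 500 (6 without its replicate 2), 3 to 5 for Scutellariae 20 (3 without vehicle replicate 1), 0 to 1 for Zizyphi 500, 0 to 9 for Zizyphi 20, 2 to 5 for fresh against dried ginger (2 without fresh replicate 3), 1 to 4 for Pinelliae 500 against 20 and 0 to 13 for Zizyphi 500 against 20. Where this left Pinelliae 20 with 1 library, it was assumed to vary like the other groups. Depth limits AGPAT2, the lowest tested member, and SCD5, which was not tested.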
